A study of Mus musculus with 6 samples.

Results

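T-bet occupancy was examined over the Ifng and Il22 cytokine locus of mouse induced regulatory T cells (iTreg cells). The locus was taken as the mm9 window chr10:117300000-118050000, 750 kb that hold Il22, Ifng and the flank toward Rap1b, and every peak that touched the window in any of the 3 deposited ChIP-seq peak lists was a member. It held 14 of the 7996 peaks of wild-type (WT) replicate 1, 3 of the 851 peaks of WT replicate 2 and none of the 78 peaks of the T-bet knockout (KO) library, 17 of 8925 peaks in all. The window was defined by position and not by peak score, but it was drawn with the peaks of these lists already known.

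All libraries came from Balb/c iTreg cells: naive CD4+ T cells (CD25-, CD62L high, CD44 low) were sorted from spleen and lymph node, activated with plate-bound antibodies to CD3 and CD28 at 10 µg/ml each, and cultured for 7 days with human TGF-β1 at 33 ng/ml and IL-2 at 20 ng/ml. The WT and KO groups received the same treatment and differed in the T-bet gene. Chromatin was precipitated with a custom rabbit anti-T-bet serum, so the KO library, which lacks the target, measures what the serum and the procedure give without T-bet. There were 2 WT ChIP libraries and 1 KO ChIP library; the 3 input libraries were not analysed here. The labels do not say whether the WT replicates came from separate mice or cultures, how many mice were pooled, or how the T-bet gene was inactivated. With 1 KO library no test of genotype across samples was possible, and read depth is unknown for every library. Read lengths of 35 and 50 bp are both named for every library, so which library had which length is unknown here. The deposited names of the WT replicate 2 and KO lists start with one number and that of replicate 1 with another, whose meaning the sources used here do not give. If the number marks a batch, the difference between the WT replicates and the batch cannot be told apart. The same then holds for any difference between replicate 1 and KO.

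T-bet, encoded by Tbx21, is a T-box transcription factor that directs T helper 1 differentiation and activates Ifng. Ifng encodes interferon-γ, the cytokine that defines T helper 1 cells and activates macrophages, and Il22 encodes interleukin-22, an IL-10 family cytokine that acts on epithelial cells of barrier tissues. The genes lie on the same chromosome, and in T cells Ifng is known to be controlled by conserved elements spread over a wide stretch on both sides of the gene. A part of regulatory T cells also express T-bet, which is linked to their control of T helper 1 responses.

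The order of genes was read from the RefSeq annotation of GRCm38.p6, since no mm9 annotation was used here. Of the 30 genes listed there from Rap1b to Dyrk2, 6 code for proteins, in the order Rap1b, Mdm1, Il22, Iltifb, Ifng and Dyrk2. Rap1b encodes a small GTPase that acts in integrin-mediated adhesion, Iltifb is a copy of Il22, and Dyrk2 encodes a protein kinase. The long noncoding RNA gene Ifngas1 (also Tmevpg1), a known positive regulator of Ifng expression, follows Ifng. The list counts 12 pseudogenes between Il22 and Ifng. GRCm38 and mm9 positions cannot be subtracted from each other, so which exon, intron or intergenic stretch a peak falls in was not determined. No peak was therefore assigned to Ifng, Il22 or any other gene, and this includes the peaks in the flank toward Rap1b. Peak positions are in mm9, counted from 1.

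T-box factors bind the letters AGGTGT and its core GGTGT, and the 250 bases before the RefSeq start were searched for both on either strand. The core lies within the longer motif, so each match of the longer one is also a match of the core. Over all 32851 RefSeq promoter windows of this length, 11.8% held AGGTGT and 36.2% held GGTGT. The Ifng window, at GRCm38.p6 chr10:118440796-118441045 on the plus strand, held neither. It is shown whole because Ifng is the classical T-bet target of the locus, with no capitals because there was no match:
Ifng, 5′ to 3′: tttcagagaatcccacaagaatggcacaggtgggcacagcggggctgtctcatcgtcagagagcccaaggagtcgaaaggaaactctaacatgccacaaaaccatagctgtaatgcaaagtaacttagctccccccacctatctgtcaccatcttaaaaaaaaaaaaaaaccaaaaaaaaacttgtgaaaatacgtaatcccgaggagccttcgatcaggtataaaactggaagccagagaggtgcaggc

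The Il22 window held 2 matches of the core, of which 1 was the longer motif, and the Ifngas1 window held 1 match, which was also the longer motif. The Rap1b window held 1 match of the core alone, and those of Mdm1, Iltifb and Dyrk2 held none. The stretches around the matches are shown 5′ to 3′ on the gene's strand, with the core or its reverse complement in capitals. That of the Rap1b window is at chr10:117845987-117846015 on the minus strand, those of Il22 are at chr10:118204768-118204796 and chr10:118204823-118204851 on the plus strand, and that of Ifngas1 is at chr10:118556640-118556668 on the minus strand, all in GRCm38.p6:
Rap1b: gacgtcaaggcgACACCgccaaacctcgc
Il22, first: caaaaaaaccctGGTGTcccgatggctat
Il22, second: tcacaagcagagACACCtaaacaggtaag
Ifngas1: tgtttttttcacACACCttgcccatcttc

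These letters describe the reference genome of another strain than the Balb/c cells studied. The Il22 and Dyrk2 windows lie inside the intervals RefSeq lists for these genes, so they may include transcribed bases of other transcripts. No peak was placed on any of these windows, so the matches are not evidence of binding.

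Sites found in both WT lists numbered 3, and none had a KO peak; with scores of at least 100 required in each list, 1 remained, the strongest. The strongest lay in the flank toward Rap1b, the next beside it, and the third about 524 kb away at the other side of the window. In replicate 1 the strongest site spanned chr10:117355536-117355992 and had a score of 1286, the peak caller's value for a peak. The scale of the score is not stated, so scores are compared within a list only. The cut of 100 was applied to each list by itself and was not shown to mean the same in each. Strong and weak refer here to this score, which was not shown to measure the amount of binding. In replicate 2 the same site spanned chr10:117355550-117356053 and had a score of 615. The KO list had no peak there. It was the highest-scoring peak of chromosome 10 in each WT list, ranking 1 of 489 in replicate 1 and 1 of 64 in replicate 2, and it ranked 21 and 7 over the whole lists. Rank 21 places it in the top 0.263% of replicate 1, and rank 7 in the top 0.823% of replicate 2.

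Most peaks that outranked this site did not have the same support. As background, 9.50% of all replicate 1 peaks met a replicate 2 peak, as did 35.2% of those scoring at least 200, and 0.550% met a KO peak. Of all replicate 2 peaks, 85.4% met a replicate 1 peak and 5.41% a KO peak. Of the 20 higher peaks of replicate 1, 15 met neither of the other lists, 1 met both, and 4 met replicate 2 alone. Of the 6 higher peaks of replicate 2, 5 met a KO peak, 1 met neither list, and none met replicate 1 without also meeting KO. Among the 726 sites present in both WT lists and missing from the KO list, the site therefore ranked 5 by its replicate 1 score and 1 by its replicate 2 score.

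The other shared sites were in the upper part of the replicate 1 list, within its top 9.99% and 14.6%, and in the lower part of the replicate 2 list. The site nearest to the strongest lay 44.8 kb from it, toward Rap1b, at chr10:117310406-117310704 in replicate 1 with a score of 263 and at chr10:117310393-117310722 in replicate 2 with a score of 81.9. The third site lay at chr10:117880042-117880310 in replicate 1 with a score of 219 and at chr10:117880017-117880389 in replicate 2 with a score of 90.9. In replicate 1 these peaks ranked 799 and 1169 of 7996, above the list's median score of 108; in replicate 2 they ranked 669 and 552 of 851, below that list's median, also 108. Among the 726 shared sites they ranked 356 and 431 by the replicate 1 score, near the middle, and 582 and 489 by the replicate 2 score, in the lower part. The order of this pair differed between the replicates: the site nearer Rap1b was the higher in replicate 1 and the lower in replicate 2.

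The peaks of the replicates overlapped over most of their length at each shared site. At the site nearer Rap1b the midpoints were 2.5 bp apart and all 299 bp of the replicate 1 peak were within the 330 bp of replicate 2. At the strongest site the midpoints were 37.5 bp apart and 443 bp were common to peaks of 457 and 504 bp. At the third site the midpoints were 27 bp apart and all 269 bp of the replicate 1 peak were within the 373 bp of replicate 2. The median distance over the 726 shared sites was 32 bp. The replicate 2 peak was the wider one each time, as in the lists as a whole, whose median widths were 353 bp in replicate 2 and 175 bp in replicate 1.

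**Figure D1:**
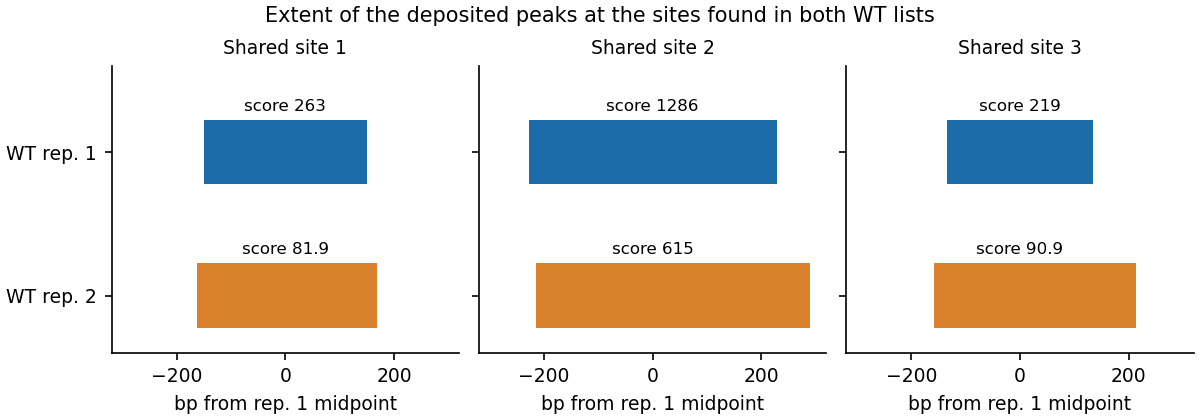
Extent of the deposited peaks at the 3 sites found in both WT lists, in bp from the midpoint of the replicate 1 peak (horizontal axis), with replicate 1 in blue, replicate 2 in orange and the score above each bar. The midpoints are 2.5, 37.5 and 27 bp apart, and the bases in common make up 90.6%, 87.9% and 72.1% of the replicate 2 peak.

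The other 11 members were peaks of replicate 1 alone, with scores of 73.0 to 302 and a median of 173. They lay 1.89 to 253 kb from the nearest replicate 2 peak. Their scores overlapped those of the shared sites, which ranked 1, 3 and 7 of the 14 members by replicate 1 score. The peak at chr10:117347547-117347845, 7.71 kb from the nearest replicate 2 peak, had the second-highest score of the window, 302, and no replicate 2 counterpart. The peaks at chr10:117336040-117336257 and chr10:117907731-117908129, with scores of 258 and 232, also had none. The peak at chr10:117304354-117304643 scored 222 and had none either. All 4 scored higher than the third shared site at 219.

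Recurrence in the window was read against recurrence over the whole list. Of the 14 replicate 1 members, 3 or 21.4% met a replicate 2 peak (exact 95% binomial interval 4.66 to 50.8%). Over all replicate 1 peaks the share was 9.50%. With scores of at least 100 required in both lists, the share of members was 10.0%. That cut removed the replicate 2 peaks scoring 81.9 and 90.9, while their replicate 1 counterparts, at 263 and 219, stayed. The share over the whole list was not computed at this cut. The members scored higher than the list as a whole: 8 of 14, or 57.1%, scored at least 200, against 17.5% of the list. Among peaks scoring at least 200, 3 of 8 members recurred, or 37.5% (interval 8.52 to 75.5%), close to the 35.2% of the list. For the 7 members scoring 202 to 302, 2 recurred, or 28.6% (3.67 to 71.0%), and over that range of scores the list gave 23.4%. None of the 6 members under 200 recurred, where the list gave 4.05%. The members come in groups and the window was drawn around known peaks, so the intervals on recurrence cover counting error alone. Whether recurrence differs between the window and the rest of the genome at matched score was not tested, and the number of peaks is small. When replicate 1 was cut to its 851 highest peaks, a choice made after seeing the data, 4 members were left and 2 of them recurred, against 46.3% of that cut list.

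In the other direction, all 3 replicate 2 members met a replicate 1 peak (interval 29.2 to 100%), where 85.4% of the replicate 2 list did. No member of either WT list met a KO peak, where 0.550% of replicate 1 peaks and 5.41% of replicate 2 peaks did. The KO list had so few peaks that this was the usual case: 98.4% of 3530 genome tiles of the window's length held no KO peak, and the mean was 0.0220 KO peaks per tile length. Taking a count of 0 to allow up to 3 peaks, the share in the window could be up to 3.85% of the 78 KO peaks, in counting error alone. The KO library had 3 peaks on chromosome 10, the nearest 33883 kb from the window, at chr10:83417215-83417441 with a score of 150. The missing KO peak means that no KO signal passed the peak caller's threshold here, and it gives no level of KO signal under the WT peaks.

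**Figure D2:**
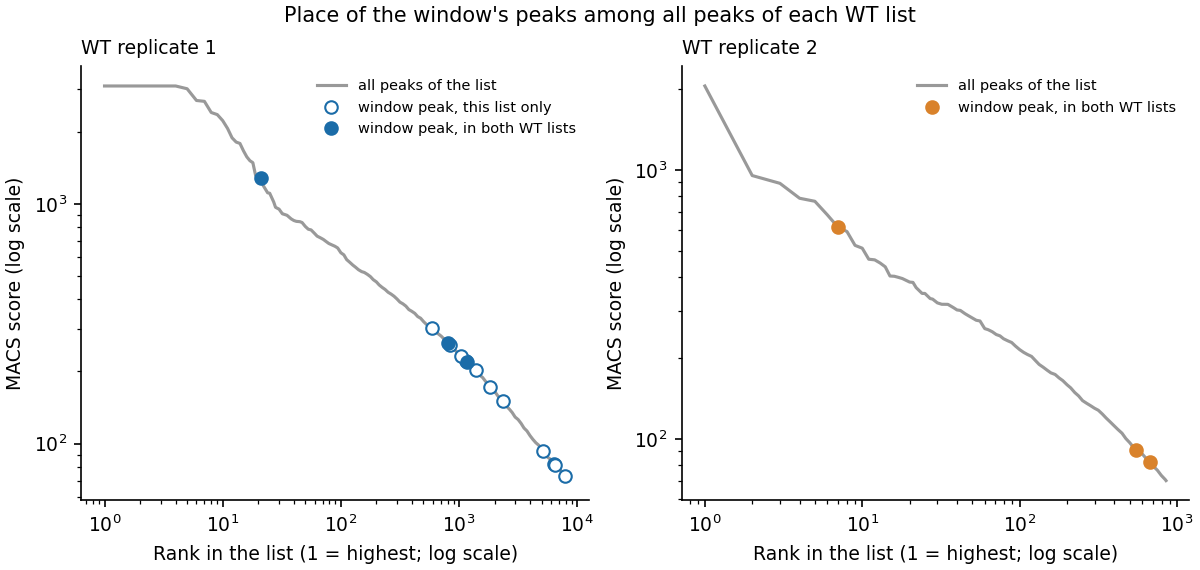
Score of each peak (vertical axis, log scale) against its rank in its own list (horizontal axis, log scale, 1 is highest) for WT replicate 1 and WT replicate 2; the grey line is the whole list, filled points are window peaks found in both WT lists and open points are window peaks of replicate 1 alone. The strongest site stands at rank 21 of 7996 and rank 7 of 851, and the other shared sites stand at ranks 799 and 1169 in replicate 1 and 669 and 552 in replicate 2.

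Along the window, the replicate 1 peaks fell into 3 groups when neighbours within 50 kb were joined, and into 5 when the distance was 20 kb. The first, toward Rap1b, ran from 117301925 to 117355992 on chromosome 10 and held 7 peaks in 54.1 kb with scores of 81.5 to 1286, a median of 258. It contained the strongest site at its inner end and 2 of the 3 replicate 2 peaks. The second group was a lone peak at chr10:117609513-117609822 with a score of 202, after a stretch of 254 kb without a peak. After a further 234 kb came the third group, from 117844120 to 117932684, with 6 peaks in 88.6 kb, scores of 73.0 to 232, a median of 162, and the remaining replicate 2 peak.

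Gaps within the groups are 50 kb or less by the joining rule. The window was also drawn around known peaks, so the spacing below describes the members and is not a test. Of the 13 gaps between neighbouring members, 11 were 50 kb or less, the shortest was 1.87 kb and the median 11.6 kb, against a median of 60.2 kb between neighbours over the whole replicate 1 list. A neighbour within 50 kb was present for 13 of the 14 members, where 66.6% of all replicate 1 peaks had one. Of the 3 sites in both WT lists, the 2 in the first group had each other within that distance, where 42.7% of the 726 shared sites had such a neighbour. Of 4255 groups formed the same way over the genome, single peaks counted as groups, 2.96% held at least 7 peaks and 4.25% at least 6. The share of peaks that lie in such groups is larger and was not computed. The inner stretches of 254 and 234 kb without a peak were ordinary, since 24.2% and 25.4% of gaps in the list were at least as long.

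**Figure D3:**
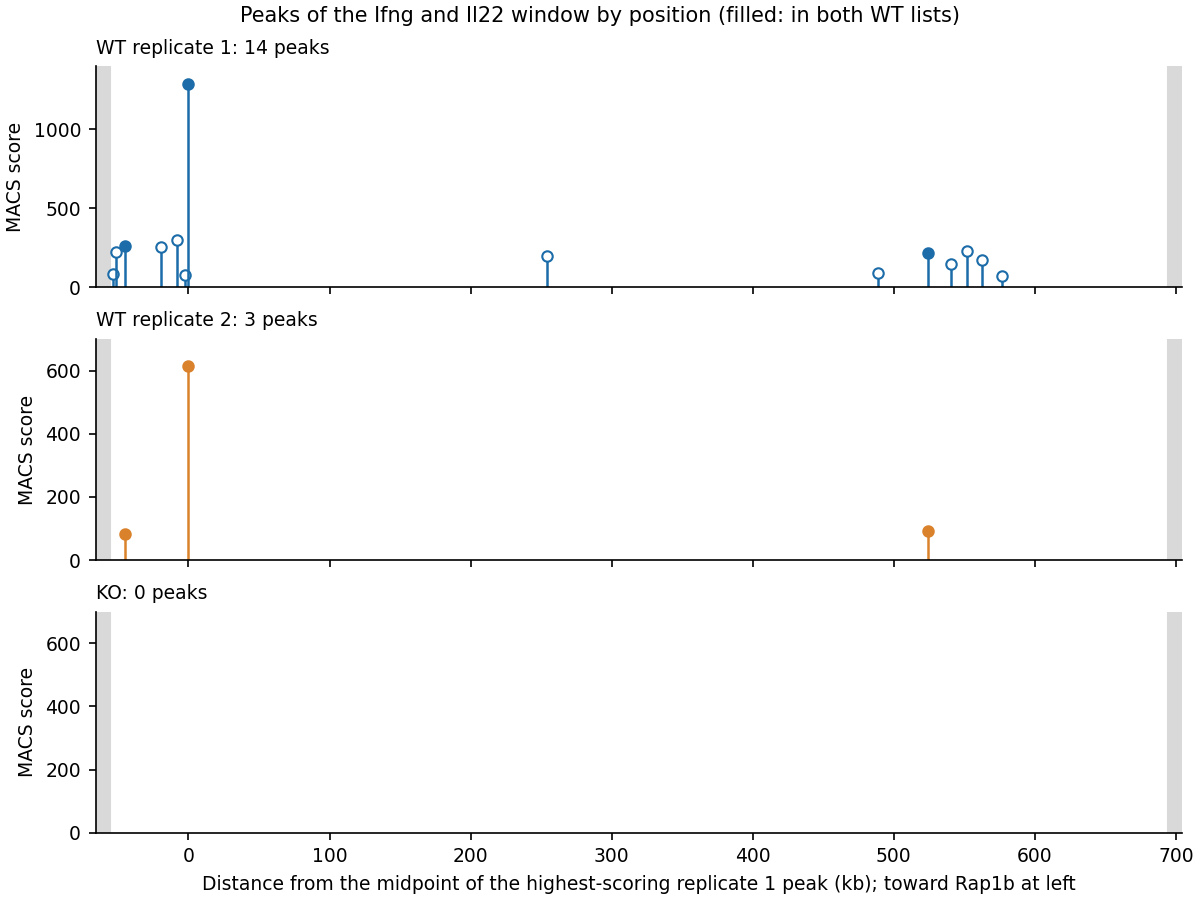
Peaks of the window in WT replicate 1, WT replicate 2 and the KO library, by distance in kb from the midpoint of the strongest replicate 1 peak (horizontal axis, toward Rap1b at left) and deposited score (vertical axis, which differs between panels); filled points are in both WT lists and grey bands lie outside the window. Replicate 1 shows 7 peaks at the left end, 1 peak alone and 6 peaks at the right, replicate 2 has 3 peaks at places replicate 1 also marks, and the KO panel is empty.

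The wide range of scores in the first group came from the strongest site, and the other members there scored 81.5 to 302. The members of the third group scored 73.0 to 232. Beside the shared site with its score of 219, they were at chr10:117844120-117844358 with a score of 93.1, at chr10:117895903-117896158 with 151, at chr10:117907731-117908129 with 232, at chr10:117917927-117918344 with 173 and at chr10:117932536-117932684 with 73.0. The highest score of this group was 232, below 4 of the 7 peaks of the group toward Rap1b. The weak members of that first group were at chr10:117301925-117302180 with a score of 82.3 and at chr10:117353527-117353664 with 81.5, the latter 1.89 kb from the replicate 2 peak at the strongest site. Peak width ranged from 138 to 457 bp, with a median of 279.5 bp. The 8 members scoring at least 200 had a median width of 299 bp, against 332 bp for list peaks of such scores, and the 6 weaker members had 247.5 bp, against 163 bp.

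The peaks on either side of the window show where its edges fall. On the Rap1b side the first member began 1.93 kb inside the edge, and the last replicate 1 peak outside, with a score of 78.7, was 143 kb from that member; 33.8% of gaps in the list were at least as long. On the other side the last member, with a score of 73.0, ended 117 kb inside the edge, and the next replicate 1 peak, at chr10:119641869-119642023 with a score of 75.8, came only after 1709 kb. Gaps that long made up 4.61% of those in the replicate 1 list. The next replicate 2 peak, at chr10:119641740-119641984 with a score of 81.3, shared 116 bp with that peak, so the WT lists resumed at the same place. For replicate 2 that was a gap of 1.76 Mb, and 37.9% of the gaps in its list were at least as long. On the Rap1b side replicate 2 had no peak for 6.29 Mb, and 15.2% of its gaps were at least as long.

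Peak density was higher in the window than around it in the WT lists. Replicate 1 had 18.7 peaks per Mb in the window (exact 95% Poisson interval 10.2 to 31.3), 3.68 (3.35 to 4.02) on the rest of chromosome 10 and 3.01 (2.94 to 3.07) over the rest of the genome. The ratios were 5.08 and 6.21. Replicate 2 had 4.00 peaks per Mb (0.825 to 11.7), 0.472 (0.361 to 0.606) and 0.320 (0.298 to 0.342), with ratios of 8.47 and 12.5 that rest on 3 peaks. At scores of at least 100, which left 1 replicate 2 peak in the window, the ratio to the rest of the genome was 7.50. In the KO list the window had no peak, for which the exact interval reaches 4.92 per Mb and the limit of 3 peaks used above gives 4.00. The rest of the genome had 0.0294 KO peaks per Mb. Because the window was drawn around known peaks, and the replicate 1 peaks come in groups, these intervals cover counting error alone and no test was made.

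Other stretches of the genome were as dense. Of 3530 non-overlapping tiles of 750 kb, 1.93% held at least 14 replicate 1 peaks, up to 33, and 2.24% held at least 3 replicate 2 peaks, up to 10. At scores of at least 100 the window held fewer peaks, and the tiles with at least as many were 1.19% for replicate 1 and 8.56% for replicate 2; with peaks within 500 bp merged, the replicate 1 value was 1.22%. At least 3 sites found in both WT lists and not in the KO list were present in 1.87% of tiles. Among the 68 tiles with at least 14 replicate 1 peaks, 31 had at least 3 replicate 2 peaks, 13 had none, and the median was 2. The window was thus in the upper range of tiles by number of peaks, with a replicate 2 count near that of tiles equally rich in replicate 1 peaks. It was drawn around known peaks while the tiles ran from each chromosome start, so its place among them is a description and not a test.

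**Figure D4:**
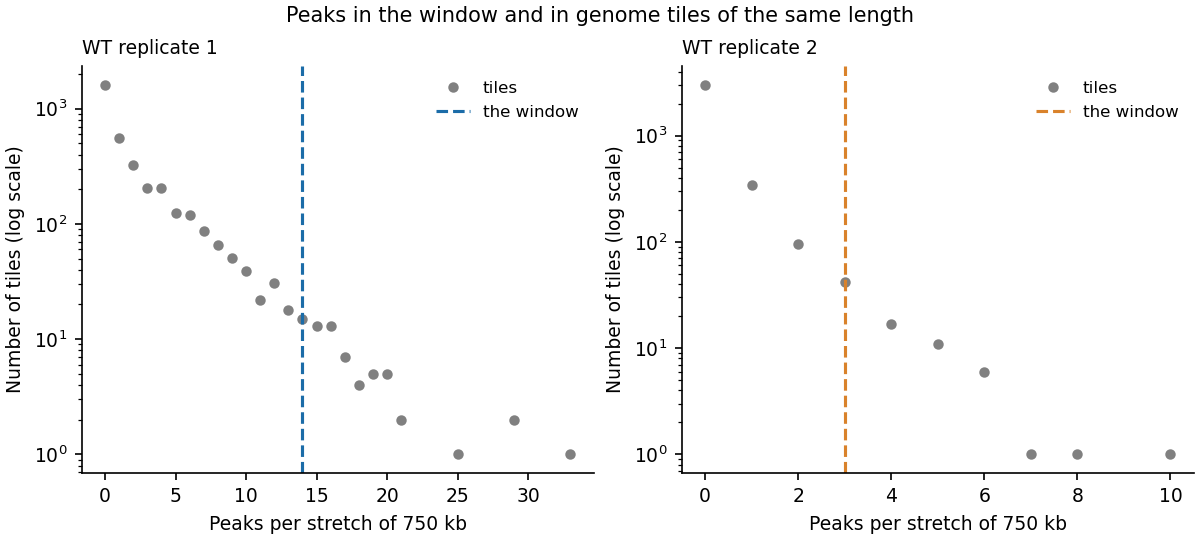
Number of genome tiles of 750 kb (vertical axis, log scale) by the number of peaks they hold (horizontal axis) in WT replicate 1 and WT replicate 2; grey points are tiles and the dashed line is the window. The window holds 14 and 3 peaks, and 1.93% and 2.24% of tiles hold at least as many.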

How the data were processed

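The 3 ChIP libraries each have a peak list of their own. CASAVA, Bowtie2, MACS 1.4 and the build mm9 are named in the submitters' processing notes; for tool settings, read filters and peak-calling controls the sources used here say nothing. Columns hold chromosome, start, end, a MACS name and a score (5 in all). As deposited, the score is the peak caller's output per peak, with no stated scale, and it was compared within a list only. Replicates were not pooled before calling. Samples were grouped by title. Starts were raised by 1 to count from 1. Peaks sharing at least 1 bp were called shared. Shares carry exact Clopper-Pearson intervals and densities exact Poisson intervals, at 95%. Tiles ran from each chromosome start, with mm9 lengths from GenomeInfoDb 1.38.1 (R 4.3.3). Overlap, grouping and tile counts were checked on simulated data. Python 3.11.15, scipy 1.17.1 and matplotlib 3.10.9 were used.

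The members, the window and the lists were chosen with earlier results of these data known. Peaks named are those with a counterpart in another list and the 5 highest of each WT list in the window; other peaks were named with their values known. The planned gene positions and T-box motif search in peaks needed an mm9 annotation and genome and were not run; the search of RefSeq promoters was added later.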

Additional observations from a re-analysis of the deposited data

How the results depend on the processing

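Of 72 alternative values for 16 results, 64 stayed within the interval of the value reported, or within 1.5 times it for counts. This tally is not a measure of robustness. The KO values could not move, since the nearest KO peak was 33883 kb from the window. Some intervals were also wide: 10.0% and 50.0% both passed for a reported share of 21.4% (4.66 to 50.8%). At scores of at least 100, 1 replicate 2 peak and 1 site in both WT lists were left, the strongest one, and the share of tiles as rich as the window became 1.19% for replicate 1 and 8.56% for replicate 2. With peaks within 500 bp merged, the replicate 1 share of tiles was 1.22%. Narrowing the window by 50 kb at each end left 9 replicate 1 members. Leaving out 1 WT replicate gave 3 sites (without replicate 1) to 14 (without replicate 2), so the longer list sets the upper value. Joining peaks within 20 kb, an addition made after seeing the data, gave 5 groups of replicate 1 peaks in place of 3. The share of replicate 1 members met by replicate 2 ranged from 10.0% (scores of at least 100 in both lists) to 50.0% (replicate 1 cut to the length of replicate 2, also added later). No paired analysis was possible because replicate numbers are common only to WT ChIP and input samples, no input was analysed here, and KO has 1 ChIP library. The motif alternatives for peaks need an mm9 genome and were not run. Read depth is unknown and limits every count, and a site missing from a shorter list is not shown to be unbound.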
